A study of Mus musculus with 2 samples.

Results

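Among the protein-coding genes with abundant RNA in mouse layer V pyramidal neurons, 73 had no leading transcript, meaning that no annotated transcript held 40% or more of the gene's expression. They were chosen by the gene TPM and the transcript shares of the first of 2 libraries, for which the authors deposited a table of transcripts. Of 43346 gene rows, 21474 were protein-coding genes, and 1277 of these reached 100 TPM (a transcript level corrected for length and depth) in replicate 1. Among those 1277 genes, the 73 were the ones whose largest transcript share of the gene's TPM was below 40%, which is 5.72% of the abundant coding genes. A gene with 1 or 2 transcripts cannot meet this rule, so most comparisons below are with the 757 other abundant coding genes that have 3 or more listed transcripts. Of all 830 abundant coding genes with that many transcripts, the 73 made up 8.8%. The shares and their order in replicate 1 were fixed by this choice and are given as a description, with no test.

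The samples formed 1 group of 2 libraries, labelled biological replicates 1 and 2, with no second condition. Each library came from a pool of 50 layer V pyramidal neurons, the large excitatory output cells of the cerebral cortex, taken by laser capture from wild-type male mice of 8 months. The strain is B6NCrl in one label and C57Bl5 or C57Bl6 in other labels, the antibody tag reads Control, and 1 donor is given for the 2 pools. Whether the pools are of separate animals is thus unsettled, and part or all of their spread may be technical. RNA longer than 200 nt was measured by a Smart-seq type protocol with spike-in RNAs and without molecular identifiers. A transcript table was used for replicate 1 only, and replicate 2 was measured here at the level of genes. With 1 group, no test between groups was possible, and differences between the libraries have no replicate check.

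Most mammalian genes produce several transcripts, through alternative promoters, alternative splicing and alternative sites of polyadenylation. Some of these transcripts encode different proteins, and others differ only in untranslated regions. Still others are annotated as retained-intron transcripts, as processed transcripts without an open reading frame, or as targets of nonsense-mediated decay, the pathway that degrades RNAs with an early stop codon. Neurons are known for extensive alternative splicing, and genes of the splicing machinery itself are known to produce transcripts that are degraded or kept in the nucleus. The classes named below are labels of the annotation, and neither decay nor retention was measured.

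The libraries held 24171434 and 27946180 estimated reads in replicates 1 and 2, of which spike-ins took 4.28% and 5.32%. The 73 genes held 1.81% and 1.68% of the gene reads. Of the markers of the labelled cell type, all 6 pan-neuronal, 6 glutamatergic and 5 layer 5 genes reached 1 TPM in each library. They summed to 7915 TPM in replicate 1, against 10039 TPM in replicate 2, for the pan-neuronal genes, to 606 and 784 TPM for the glutamatergic genes, and to 2251 and 4715 TPM for the layer 5 genes. Markers of other cells were present too, and all 5 astrocyte, 5 oligodendrocyte and 3 erythroid markers reached 1 TPM in each library. All 6 GABAergic, 5 microglial and 4 endothelial markers did so in replicate 1, and 5, 4 and 3 of them in replicate 2. Reaching 1 TPM thus does not set the labelled cell type apart. The 6 GABAergic markers summed to 3345 TPM in replicate 1, against 1291 TPM in replicate 2, the 5 oligodendrocyte markers to 395 and 500 TPM, the 5 astrocyte markers to 347 and 383 TPM, the 5 microglial markers to 91.6 and 36.1 TPM, the 4 endothelial markers to 71.4 and 50.5 TPM, and the 3 erythroid markers to 3.9 and 204 TPM. The median over the layer 5 markers was 20.0 TPM in replicate 1 and 93.6 TPM in replicate 2, against 148 and 52.9 TPM over the GABAergic markers. In replicate 1, which gave the transcript shares, the GABAergic sum exceeded the glutamatergic and the layer 5 sums. The part of these cells in the transcript mixtures was not tested.

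With no transcript at 40%, the rule itself required the TPM of each of the 73 genes to be spread over 3 or more transcripts. The leading share, the number of transcripts at 5% or more and the effective number below describe that choice. The leading transcript held between 21.9% and 39.9% of a gene's TPM, with a median of 35.5%, against a median of 77.2% in the 757 other genes. The second transcript held a median of 26.4%, and the first 3 together held a median of 78.4%. The median gene had 4 transcripts at 5% or more, against 2 in the other genes. Expressed as an effective number of equally abundant transcripts (the inverse of the summed squared shares), the median was 4.16, against 1.60 in the other genes. The annotation also offered more to choose from, with a median of 11 listed transcripts (range 4 to 32), against 6. Of the 948 transcripts listed for the 73 genes, 248 had a share of 0.

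Atrx, a chromatin remodeller on chromosome X (chrX:105797615-105929403, minus strand, GRCm38), had the lowest maximum of all. Its level was 112 TPM in replicate 1, against 97.5 TPM in replicate 2. In replicate 1, its TPM was divided among a coding fragment of 1716 bases at 21.9%, the full coding transcript of 10269 bases at 20.1%, and coding fragments of 2768 and 993 bases at 16.6% and 13.5%. The full transcript drew 4559 of the estimated reads (posterior SD 46.4), or 64.0% of the gene's reads, whereas the fragment that led by TPM drew 792 (posterior SD 45.0), or 11.1%. Thus the transcript that led by length-corrected level was not the one that led by reads.

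Ptprd, a receptor-type tyrosine phosphatase of synaptic adhesion, followed at 23.1%. Its full coding transcript of 8084 bases held 14.5% of the TPM and 44.0% of the reads, behind a processed transcript of 1316 bases and retained-intron transcripts of 606 and 1706 bases. Arpp21, a cAMP-regulated phosphoprotein enriched in neurons, had the most listed transcripts of the 73 genes, 32, and the highest effective number, 9.31. Its leading processed transcript held 23.4% and no other passed 12.2%. Ppig, a cyclophilin with an arginine-serine domain that binds the transcription and splicing machinery, was led by processed transcripts of 548, 428 and 801 bases at 23.4%, 21.7% and 21.5%. Its coding transcript of 6245 bases held 11.3% of the TPM and 58.5% of the reads. Cryzl1, a quinone oxidoreductase-like protein, and Marc2, a mitochondrial reductase, had maxima of 24.2% and 26.2%. In Ttc3, a ubiquitin ligase, a coding transcript of 7417 bases led by TPM (26.4%) and by reads (63.2%), and in Cryzl1 a coding transcript of 1965 bases did so (24.2% and 41.9%).

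At the other edge, Ncald, Tpd52l2 and Jkamp lay just inside the 40% limit, at 39.8%, 39.9% and 39.9%. Rbm39, Tac1 and Psma3 lay just outside it, at 40.0%, 40.1% and 40.2%.

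Because TPM divides reads by length, a short transcript gains a larger share of TPM than of reads. The transcript with the most reads was also the leading transcript in 35 of the 73 genes, and it was longer than the leading transcript in the other 38. It held 40% or more of the reads in 47 genes, and 26 genes stayed below 40% by reads as well. By reads, 50 abundant coding genes had no transcript at 40%, of which 26 were among the 73. The leading transcript had less than 50% of the length of the gene's longest transcript in 48 genes. Gas7, a growth-arrest protein that binds the actin cytoskeleton, had the highest share of reads in a transcript: its coding transcript of 7067 bases held 82.8% of the reads and 31.8% of the TPM, behind a processed transcript of 721 bases at 39.4%. Hmgb1, a DNA-bending chromatin protein, had a coding transcript of 2838 bases with 70.9% of the reads and 35.1% of the TPM. Tardbp, which encodes the RNA-binding protein TDP-43, had the lowest maximum by reads, 17.4%, and its leading transcript by TPM was a retained-intron transcript of 370 bases at 29.5%.

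**Figure D1:**
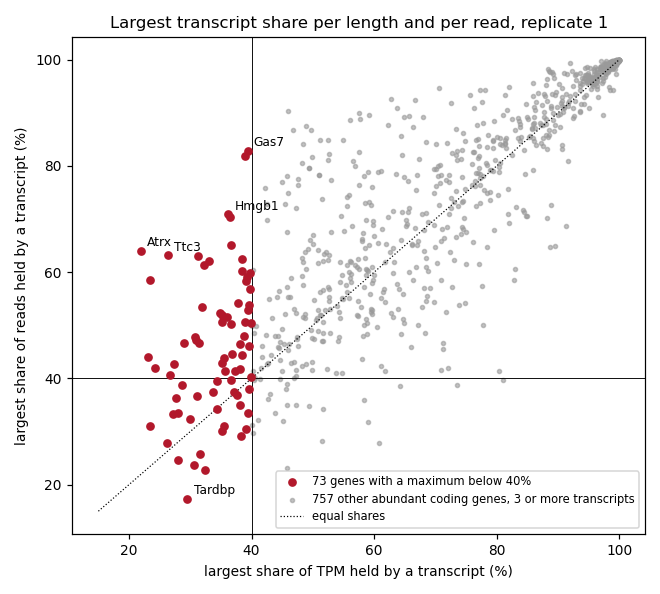
Largest share of TPM held by a transcript (x axis, %) against the largest share of reads held by a transcript (y axis, %), in replicate 1. Each point is a gene, red for the 73 genes and grey for the 757 other abundant coding genes with 3 or more transcripts, with lines at 40%; 47 of the red points lie at or above 40% of reads and 26 below.

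The order of the transcripts within a gene was often not resolved by the estimate itself. The deposited tables give an interval for each transcript's TPM, at a level that the sources used here do not state. The intervals of the first and the second transcript overlapped in 41 of the 73 genes. In Pttg1, which encodes securin, coding transcripts of 700, 741 and 696 bases stood at 103, 91.1 and 58.9 TPM, and the interval of the first ran from 59.1 to 141 TPM. In Mapt, by contrast, the intervals of the first 2 transcripts, from 50.2 to 61.6 TPM and from 40.0 to 42.9 TPM, did not meet. Membership itself moved little: by the deposited posterior mean, all 73 genes stayed below 40%, and 7 further genes fell below it (Fam92a, Haghl, Ndufv1, Psma3, Rbm39, Tcf4 and Tpm3).

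In replicate 1, the TPM of these genes lay in noncoding annotation classes more than that of other abundant genes did. The class shares add up the same transcript shares that chose the 73 genes, so this comparison is a description. The 73 genes also had more listed transcripts, a median of 11 against 6, and the part of this in the difference was not tested. Transcripts annotated as protein-coding held a median of 59.3% of the TPM of the 73 genes, against 96.1% in the 757 others, and by reads the medians were 74.3% and 97.6%. The coding share was below 50% in 30 of 73 genes (41.1%), against 101 of 757 (13.3%). Retained-intron transcripts held a mean of 16.2%, against 6.43%, processed transcripts 16.8%, against 6.21%, and transcripts annotated for nonsense-mediated decay 7.24%, against 3.20%. The medians of these 3 classes were lower, at 6.36%, 3.98% and 0% in the 73 genes and 0.39%, 0% and 0% in the 757 others. A part of the genes thus carried the means. The leading transcript was coding in 41 of the 73 genes, and in 11 of these it was an annotated fragment with an unknown end. In the remaining genes the leading transcript was a processed transcript in 12, a retained-intron transcript in 11, a transcript annotated for decay in 8 and a transcript not found in the annotation used here in 1. In the 757 other genes it was coding in 657 (86.8%).

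The range within the 73 genes was wide. Clk1, a kinase that phosphorylates SR splicing factors, stood at 115 TPM in replicate 1, against 101 TPM in replicate 2, of which only 3.07% lay in coding transcripts in replicate 1. A decay-annotated transcript of 1705 bases held 38.5%, with 1422 estimated reads (posterior SD 60.3). Of Tmem191c, a transmembrane protein, 7.71% was coding, and 92.3% lay in transcripts that were not found in the annotation used here. Ndufa10, an accessory subunit of respiratory complex I, stood at 370 TPM in replicate 1, against 463 TPM in replicate 2. Its coding transcript of 2020 bases held 10.2% of the TPM, behind a decay-annotated transcript of 1514 bases at 29.0%, a retained-intron transcript of 715 bases at 26.6% and a processed transcript of 248 bases at 22.8%. In Ppig 12.2% was coding, and in Cdc123, which assists assembly of a translation initiation factor, 12.8%. At the other end, the coding share was 100% in Mrpl55, a protein of the mitochondrial ribosome, and 99.99% in Romo1, 99.7% in Pttg1, 99.6% in Ncald and 98.9% in Tpm1. It was 90% or more in 13 genes.

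**Figure D2:**
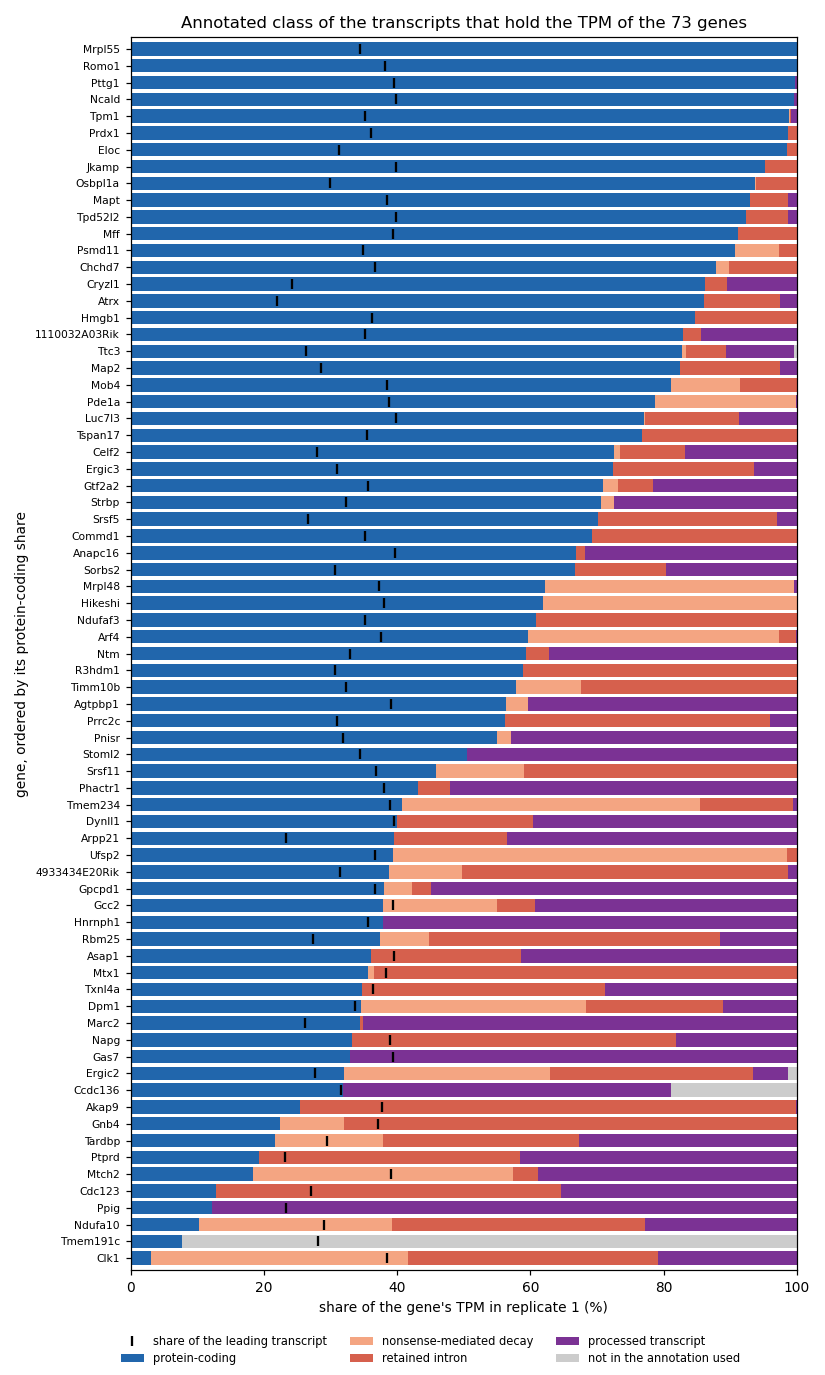
Share of each gene's TPM in replicate 1 (x axis, %) by the annotated class of its transcripts (colours), for the 73 genes ordered by coding share; the black tick marks the leading transcript's share. Coding transcripts (blue) hold 90% or more in 13 genes and less than 50% in 30.

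Genes that act on RNA splicing formed the largest of the functional groups examined. Of 21 abundant genes on a list of SR proteins, hnRNPs and related splicing regulators, 8 (38.1%) had no leading transcript, against 5.72% of all abundant coding genes. With 3 or more listed transcripts required, it was 8 of 19, against 8.8% of all 830 such genes. The 8 were Srsf5 and Srsf11, both SR proteins, Rbm25, Luc7l3, the hnRNP gene Hnrnph1, Celf2, Tardbp and Clk1. All 21 genes had a median maximum of 45.9% and a median of 13 listed transcripts. The latter was 4 in the 1204 other abundant coding genes and 6 in the 757 with 3 or more. Coding transcripts held a median of 41.8% of the TPM in the 8 genes and 87.1% in the other 13 on the list. The rule divided these genes by the same transcript shares, so these medians are a description too. In Srsf5 (chr12:80945504-80950507, plus strand, GRCm38), a retained-intron transcript of 2720 bases led with 26.7% of the TPM and 40.5% of the reads, followed by coding transcripts of 1527, 1568 and 1498 bases at 26.5%, 24.7% and 19.0%. Rbm25, a U1-associated splicing regulator, was led by a retained-intron transcript of 576 bases at 27.4%, ahead of its coding transcript of 4226 bases at 17.8%. In Tardbp (chr4:148612382-148627019, minus strand), 21.7% of the TPM was coding, 32.6% lay in processed, 29.5% in retained-intron and 16.2% in decay-annotated transcripts. Celf2, a regulator of splicing and RNA stability, had a coding share of 72.5%, near the 70.2% of Srsf5 and below the 77.0% of Luc7l3. Unlike in Srsf5, Rbm25 and Tardbp, its 3 leading transcripts were complete coding ones. They had 3852, 5470 and 8856 bases and held 27.99%, 16.7% and 11.4%.

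The levels of these 8 genes were within 2-fold in the 2 pools. Srsf5 had 248 TPM in replicate 1, against 223 TPM in replicate 2, Rbm25 198 and 195 TPM, Celf2 178 and 140 TPM, and Srsf11 122.5 and 122.4 TPM. Hnrnph1 had 122 and 81.7 TPM, Luc7l3 116 and 89.9 TPM, and Tardbp 103 and 88.0 TPM. The log2 ratios of replicate 1 over replicate 2 ran from -0.03 to 0.54. A further gene, Txnl4a of the core spliceosome, was the only 1 of 14 abundant genes on that list, or 7.14%, near the general 5.72%. Its retained-intron, coding and processed transcripts of 419, 1756 and 461 bases held 36.4%, 32.9% and 28.8%.

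Of 47 abundant genes on a cytoskeleton list, 4 (8.51%) had no leading transcript: Dynll1, Tpm1, Mapt and Map2. The share of all abundant coding genes was 5.72%, and 8.8% of those with 3 or more transcripts, of which this list had 34. The list thus lay near the general share, and the genes are described singly. Dynll1, the LC8 light chain of dynein (chr5:115297110-115300999, minus strand, GRCm38), was the most abundant of the 73 genes, with 3222 TPM in replicate 1, against 2486 TPM in replicate 2. A processed transcript of 539 bases and the coding transcript of 729 bases stood at 1274 and 1237 TPM, or 39.5% and 38.4%, and a retained-intron transcript of 478 bases held 20.4%. Tpm1, an actin-binding tropomyosin, stood at 214 and 133 TPM in replicates 1 and 2. It was divided among complete coding transcripts of 998, 1054 and 2890 bases at 35.1%, 27.8% and 26.5%.

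Mapt, which encodes the axonal microtubule-associated protein tau (chr11:104231390-104332090, plus strand, GRCm38), stood at 150 TPM in replicate 1, against 189 TPM in replicate 2. Coding transcripts of 1362 and 5253 bases held 38.4% and 28.3%, and a coding fragment of 1527 bases held 22.9%. The annotated exons show a part of the differences between these transcripts. An exon of 87 bases at chr11:104287123-104287209 was carried by transcripts with 41.6% of the TPM, and the next one, also of 87 bases, at chr11:104289908-104289994, by transcripts with 39.1%. Transcripts that span these positions without the exon held 57.2% and 59.6%. These are the alternative exons near the amino terminus of tau, and they are shown because they divide the gene's coding TPM. The transcript of 1362 bases carries both, and it held 20.8% of the reads. It is shorter than the transcript of 5253 bases, so the 2 transcripts differ elsewhere too. Capitals mark the exon, and the lower-case letters mark the 12 coding bases on each side in the spliced transcript.
Mapt exon at chr11:104287123-104287209: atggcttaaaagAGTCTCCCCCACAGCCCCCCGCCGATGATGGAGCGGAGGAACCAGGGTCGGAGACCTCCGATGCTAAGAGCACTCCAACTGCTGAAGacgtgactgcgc
Mapt exon at chr11:104289908-104289994: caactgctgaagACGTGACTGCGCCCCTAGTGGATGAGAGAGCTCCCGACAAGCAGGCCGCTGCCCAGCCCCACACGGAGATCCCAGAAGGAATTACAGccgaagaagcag
Another exon, of 54 bases, at chr11:104307881-104307934 was included at 22.9% and skipped at 67.4%. The 93-base exon at chr11:104318157-104318249 encodes a microtubule-binding repeat, and its presence separates the long-repeat from the short-repeat forms of tau. It was carried by transcripts with 90.3% of the TPM, and transcripts that span the position without it held 0%.

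Map2, the dendritic counterpart of tau, stood at 141 TPM in replicate 1, against 106 TPM in replicate 2. Its leading coding transcript of 5195 bases held 28.6% with 4119 estimated reads (posterior SD 674), and its interval ran from 17.4 to 41.3 TPM. The large exon of 3741 bases that distinguishes the high-molecular-weight forms, at chr1:66412407-66416147, was included at 13.2% and skipped at 42.4%, with 44.4% in transcripts that do not span it.

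Of the 10 genes with the highest mean TPM, Romo1, Mff and Ndufa10 encode mitochondrial proteins. Romo1, a small protein of the inner membrane (chr2:156144039-156145797, plus strand, GRCm38), stood at 504 TPM in replicate 1, against 449 TPM in replicate 2. Its 4 transcripts, of 379, 362, 569 and 550 bases, held 38.1%, 31.9%, 24.5% and 5.42%, and all share the same coding sequence. Mff, the receptor that recruits the fission GTPase to the outer membrane, stood at 314 and 378 TPM in replicates 1 and 2. Its complete coding transcripts of 1894 and 1358 bases held 39.4% and 22.5%. Ndufa10 was the only 1 of 81 abundant genes on an oxidative phosphorylation list, or 1.23%. None of 76 cytosolic ribosomal protein genes, 22 glycolysis and TCA cycle genes, 18 translation factor genes or 15 V-ATPase genes had a maximum below 40%, and the medians of their maxima ran from 91.0% to 99.3%. Of these genes, 52, 18, 10 and 8 had 3 or more listed transcripts and could meet the rule. Among all 830 such genes the share was 8.8%, so a count of 0 in the smaller lists says little.

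Several other lists held 1 member each, between 3.70% and 9.09% of their abundant genes, against 5.72% of all abundant coding genes. Ncald, a neuronal calcium sensor, was 1 of 16 abundant genes on the calmodulin and calcium kinase list, and stood at 346 TPM in replicate 1, against 208 TPM in replicate 2. Its coding transcripts of 858 and 3295 bases held 39.8% and 38.2%. Arf4, a small GTPase of the Golgi, was 1 of 27 on the GTPase list, with a decay-annotated transcript at 37.6% ahead of coding transcripts at 32.2% and 27.5%. Napg, which encodes gamma-SNAP of the membrane fusion machinery, was 1 of 24 on the vesicle release list, and its coding transcript of 3562 bases held 82.0% of the reads and 30.5% of the TPM. Psmd11, a lid subunit of the proteasome, was 1 of 27, Ppig 1 of 26 chaperones and Hmgb1 1 of 14 chromatin genes. Gnb4, a beta subunit of heterotrimeric G proteins, was 1 of 11. No member was found among 18 ubiquitin conjugation genes, 7 phosphatase and PKA genes, 6 genes of 14-3-3 proteins or 5 receptor and channel genes. Only 13, 5, 5 and 3 of these had 3 or more listed transcripts, too few for a 0 to stand apart from the 8.8% of all such genes. In all, 21 of the 73 genes were on a list and 52 on none. Genes on no list included Ttc3 at 555 and 437 TPM in replicates 1 and 2, R3hdm1, an R3H-domain protein, at 386 and 327 TPM, Prdx1, a peroxiredoxin, at 362 and 287 TPM, and Eloc, or elongin C, at 316 and 275 TPM.

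Where several transcripts share a coding sequence, the gene could lack a leading transcript and still have a leading protein. When shares were summed over transcripts with identical coding intervals, 17 of the 73 genes had a coding sequence at 40% or more and 10 had one at 50% or more. Romo1 reached 99.99%, Pttg1 97.2%, Ncald 91.2%, Osbpl1a 82.1%, Chchd7 76.0% and Pde1a 72.0%. Eloc, Mrpl55, Srsf5 and Prdx1 followed, at 65.2%, 57.7%, 51.2% and 50.8%. In the opposite direction, 52 of the 73 genes had 2 or more different coding sequences at 5% or more of the TPM, 20 had 1 and 1 gene, Clk1, had none. Annotated fragments with an unknown end entered this count, so part of a longer coding sequence counts as a different one. The count is thus not a number of different proteins. Dynll1 was at the margin, with 40.0% for its coding sequence.

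**Figure D3:**
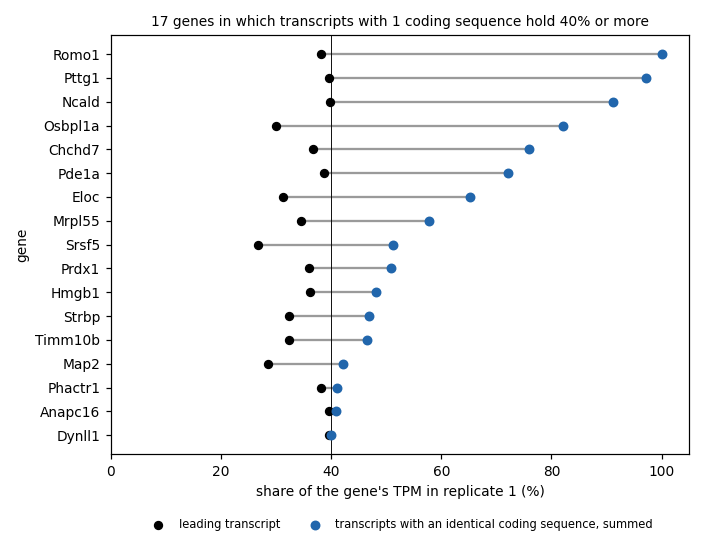
Share of the gene's TPM in replicate 1 (x axis, %) held by the leading transcript (black) and by the transcripts with an identical coding sequence, summed (blue), for the 17 genes in which the summed share is 40% or more, with a line at 40%. Romo1, Pttg1 and Ncald exceed 90% by coding sequence, and Dynll1, Anapc16 and Phactr1 lie just above 40%.

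The annotated ends of the transcripts also differed. In the 72 genes in which the first and the second transcript were both annotated, their first exons did not overlap in 45 and their last exons did not overlap in 38. Most of these pairs held an annotated fragment or a noncoding transcript, and an unknown end need not be the end of an RNA. The ends were not compared in the other abundant genes. In the 16 genes in which both transcripts were complete coding ones, the first exons were apart in 6 and the last exons in 1. Both had the same coding sequence in 6 of these 16 genes: Osbpl1a, Chchd7, Romo1, Pde1a, Pttg1 and Ncald.

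Inside the coding region, 745 internal coding exons of 70 genes were examined. In 22 genes, 26 exons were carried by transcripts with 20% or more of the TPM and skipped by transcripts with 20% or more. The length of 13 of these exons, in 10 genes, was a multiple of 3 bases, so that inclusion and skipping keep the same reading frame. Those of Mff, Tpd52l2, Ergic3 and Celf2 are shown beside the tau exons above, because their inclusion and skipping divide the coding transcripts of those genes. Capitals again mark the exon.
Mff exon at chr1:82741818-82741976, plus strand: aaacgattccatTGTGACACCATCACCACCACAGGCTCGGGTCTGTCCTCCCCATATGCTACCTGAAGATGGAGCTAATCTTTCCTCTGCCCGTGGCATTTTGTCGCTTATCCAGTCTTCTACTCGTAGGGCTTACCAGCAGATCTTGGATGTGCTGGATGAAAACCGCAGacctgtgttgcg
Mff exon at chr1:82747083-82747142, plus strand: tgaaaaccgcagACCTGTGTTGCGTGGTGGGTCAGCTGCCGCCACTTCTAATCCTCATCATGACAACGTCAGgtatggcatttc
Tpd52l2 exon at chr2:181502876-181502935, plus strand: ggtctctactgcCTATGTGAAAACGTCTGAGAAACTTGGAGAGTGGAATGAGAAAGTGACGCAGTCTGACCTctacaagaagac
Ergic3 exon at chr2:156015377-156015391, plus strand: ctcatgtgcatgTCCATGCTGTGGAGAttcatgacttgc
Celf2 exon at chr2:6549832-6549975, minus strand: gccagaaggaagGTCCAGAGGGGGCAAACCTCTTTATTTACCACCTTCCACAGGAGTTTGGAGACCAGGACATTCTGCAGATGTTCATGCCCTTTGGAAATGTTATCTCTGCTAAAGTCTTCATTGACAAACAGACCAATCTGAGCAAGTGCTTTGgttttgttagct
The 159-base Mff exon was included at 48.3% and skipped at 33.7%, and the adjoining 60-base exon was included at 57.9% and skipped at 31.2%. The 60-base exon of Tpd52l2, a coiled-coil protein of vesicle trafficking, was included at 43.4% and skipped at 50.2%. The skipping transcripts were led by a coding fragment of 484 bases with an unknown end, at 33.7%. The smallest exon, of 15 bases in Ergic3, a cargo receptor between the endoplasmic reticulum and the Golgi, was included at 48.5% and skipped at 23.9%. The including transcripts were led by a coding fragment of 739 bases, at 31.0%. The complete coding transcripts of 1349 and 1377 bases, at 17.5% and 23.9%, carried and skipped it. The 144-base exon of Celf2 was included at 29.3% and skipped at 39.7%. Further in-frame exons with a divided mixture were found in Arf4 (81 bases, included at 65.1%), Mob4 (63 bases, 70.4%), Psmd11 (63 bases, 49.4%) and Commd1 (282 bases, 35.6%). In Arf4, transcripts annotated as coding included the exon at only 27.5% and skipped it at 32.2%. These values add up transcript estimates, annotated fragments with an unknown end among them, and are not counts of reads across splice junctions.

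The gene levels of replicate 2 were not used in the choice of genes, but those of replicate 1 were. The requirement of 100 TPM in replicate 1 favours genes that are higher there, so the ratios between the pools and the lower median in replicate 2 are a description. The median level of the 73 genes was 153 TPM in replicate 1, against 136 TPM in replicate 2, and that of the 1204 other abundant coding genes was 208 TPM in each. In replicate 2, 63 of the 73 (86.3%) again reached 100 TPM, against 1120 of 1204 (93.0%). Between the pools, 1 of the 73 genes was at least 2-fold apart after scaling by TMM, against 4.46% of 9190 genes at a mean of at least 10 CPM (2.6% higher and 1.86% lower in replicate 1) and 1.99% of the other abundant coding genes. That gene was Gnb4 (chr3:32580332-32616585, minus strand, GRCm38), with 141 TPM in replicate 1, against 9.57 TPM in replicate 2, or 6339 and 228 estimated reads, a log2 ratio of 4.81. In pools of cells, fewer cells of a type and less RNA per cell cannot be told apart. The GABAergic marker sum given above was also higher in replicate 1, and its part in the Gnb4 difference was not tested. Next came Sorbs2, an adaptor of the actin cytoskeleton, with 113 and 63.3 TPM and a log2 ratio of 0.85, Marc2 with 153 and 98.6 TPM (0.73), Tmem191c with 147 and 92.6 TPM (0.66), and Commd1, a regulator of endosomal sorting, with 160 and 111 TPM (0.55). The lowest ratio was that of Ntm, which encodes the adhesion molecule neurotrimin, with 176 TPM in replicate 1, against 243 TPM in replicate 2, and 5474 against 11109 estimated reads (-0.86). The ratios are of reads, whereas TPM also divides by the mean transcript length, which differed in Ntm as given below. Ccdc136, Osbpl1a, Ptprd and 4933434E20Rik followed, at -0.49, -0.48, -0.47 and -0.40. All of these but Gnb4 lay within 2-fold.

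**Figure D4:**
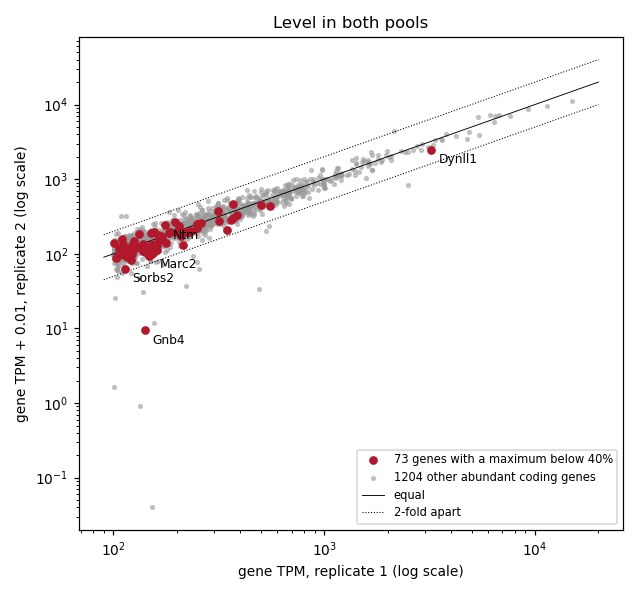
Gene TPM in replicate 1 (x axis, log scale) against gene TPM + 0.01 in replicate 2 (y axis, log scale), red for the 73 genes and grey for the 1204 other abundant coding genes; the solid line marks equal levels and the dotted lines 2-fold differences. Gnb4, at 141 and 9.57 TPM, is the only red point outside the dotted lines.

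Uncertainty in assigning reads to these genes, as distinct from their transcripts, was measured apart. The posterior SD of the gene count exceeded 0.05 of the count in 0 of the 73 genes and in 11 of the 1204 other abundant genes, in either library. Exons of another gene overlap the exons of 36 of the 73 genes, on the same strand in 9 and on the opposite strand in 33. Overlap was not measured in the other abundant genes, so whether it is more frequent in the 73 is not known. No source used here states whether strand entered the counting, and without it the reads of overlapping partners cannot be told apart. Among the 36 genes are Ttc3, which overlaps Pigp, Tardbp, which overlaps Masp2, and Romo1, which overlaps Nfs1.

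The deposited gene length is a mean over transcripts weighted by their shares, and it equalled that mean within 0.1% in 1277 of 1277 abundant genes of replicate 1. It therefore carries the transcript mixture of replicate 2 into the gene table. In replicate 1 the mean length is made from the same shares that chose the 73 genes, so the comparison with genes not so chosen is a description too. In 50 of the 73 genes the mean transcript length in the 2 pools differed by less than 1.1-fold, against 721 of 757 other genes. The median fold was 1.05, against 1.01. In 7 of the 73 genes it differed by 1.2-fold or more, against 1.57% of all 830 abundant coding genes with 3 or more transcripts and 6 of the 757 others. Gnb4 had the largest difference, with 2339 bases in replicate 1 and 1163 bases in replicate 2, or 2.01-fold, at the 228 reads it had in replicate 2. The other 6 were shorter in replicate 1, against 5 of the 757 others (0.66%) and 1.33% of the 830 genes, which include the 73. These 6 were Gpcpd1, a glycerophosphodiester phosphodiesterase, by 1.35-fold (1595 and 2155 bases), Strbp, an RNA-binding protein, by 1.33-fold (3968 and 5293 bases), Ntm by 1.30-fold (1653 and 2143 bases), and Asap1, Gas7 and Arpp21 by 1.27-, 1.27- and 1.21-fold. In all, the mean was shorter in replicate 1 in 46 of the 73 genes and in 425 of the 757 others. The number of transcripts at 5% or more also differs between these sets of genes, as given above, and its part in the difference was not tested. For Mapt, Map2 and Dynll1 the mean lengths in replicates 1 and 2 were 2434 and 2514, 3849 and 3866, and 624 and 622 bases. Equal mean lengths do not show equal mixtures, since different mixtures can have the same mean.

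**Figure D5:**
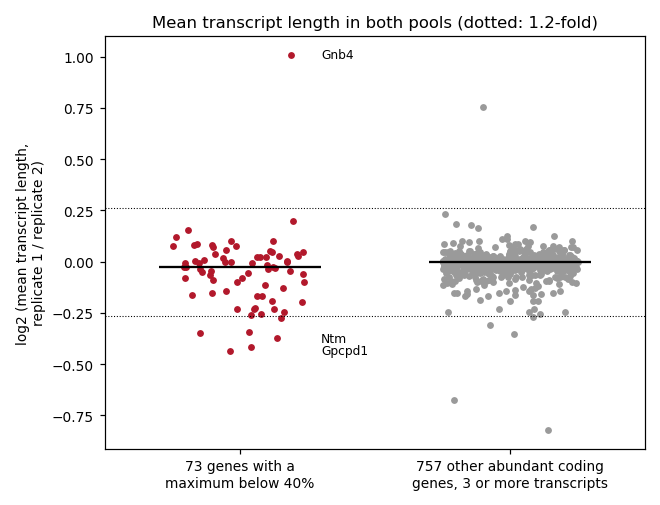
Log2 ratio of the mean transcript length in replicate 1 over replicate 2 (y axis), for the 73 genes (red) and the 757 other abundant coding genes with 3 or more transcripts (grey); each point is a gene, spread sideways at random, the black bar is the median and the dotted lines mark 1.2-fold. Gnb4 lies at 1.01, and 6 red points lie below the lower dotted line.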

How the data were processed

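The authors deposited 1 gene table per library. Per the file headers it holds an expected count, the reads estimated for a gene without normalization, and TPM, which sums to a fixed total with spike-ins included. For replicate 1 a transcript table was also used, in which the deposited percent gives the part of the gene's TPM that a transcript holds. The tables rest on transcriptome alignments to mm10 with GENCODE M4, per the text files deposited with them, and each holds 1 library. The aligner, quantifier and strand setting were not given in the sources used here. Symbols, classes, exons and coding sequences were taken from GENCODE M21, which uses the same build (GRCm38), by identifier without version. Of 43346 gene identifiers 42462 matched, and of 948 transcripts of the 73 genes 931 matched, 882 of them with the same length. Exon sequences came from the GENCODE transcript sequences.

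Expected counts were rounded to whole numbers and scaled by TMM with edgeR 4.0.16 under R 4.3.3, with DESeq2 1.42.0 size factors as an alternative. The 96 spike-ins and 26248 entries with numeric identifiers were left out. Ratios are log2((CPM + 1)/(CPM + 1)), replicate 1 over replicate 2, over genes at a mean CPM of at least 10. Python 3.11.15 and pandas 2.3.3 gave the other values. The ratio and the maximum share were tested on simulated data in which the gene or transcript of each read was known. The division of reads among transcripts that share exons was not part of that test. Replicate 1 held 24171434 estimated reads and replicate 2 held 27946180. Each of the 73 genes had at least 1272 estimated reads in replicate 1 and 228 in replicate 2, and posterior SDs cover the assignment of reads only.

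The genes and the functional lists were chosen with earlier results of these data known. Genes are named by rule: the 10 lowest maximum shares, the 10 highest mean TPM, the 3 on each side of the threshold, the 5 highest and 5 lowest ratios and coding shares, and up to 3 genes per list. Genes named beside their counts elsewhere, such as those on exons, coding sequences and mean lengths, were chosen after their values were seen.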

Additional observations from a re-analysis of the deposited data

How the results depend on the processing

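The number of genes without a leading transcript followed its limits: 17 with a maximum below 30%, 169 below 50%, 155 at a gene level of 50 TPM, 20 at 200 TPM, and 20 when only protein-coding transcripts entered the maximum. It was 80 by posterior mean, 50 by reads and 63 with 100 TPM required in both libraries. The median level of the 73 genes in replicate 2 was 136 TPM, against 155 TPM as the mean of log2(TPM + 1) over the libraries and 153 TPM without replicate 2. Scaling by spike-in totals, which shifts the median log2 ratio of all genes to 0.32 from -0.03, put 4 of the 73 genes at 2-fold or more, where TMM, DESeq2 size factors, deposited TPM, a pseudocount of 0.1 and no filter each gave 1. The median number of transcripts was 9 with at least 1 estimated read. The median coding share was 58.9% by posterior mean and 74.3% by reads. Coding sequences at 50% or more numbered 10, and by posterior mean 16 genes had one at 40% or more. The mean transcript length, an outcome added after the data were seen, differed by 1.1-fold in 23 genes and by 1.5-fold in 1; 9 differed by 1.2-fold in effective length, and 6 did among genes at 100 TPM in replicate 2. No paired analysis was possible because there is 1 group. With 1 transcript table, no transcript share has a replicate, and p-values were not computed.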
